A study of Arabidopsis thaliana with 4 samples.

Results

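Histone genes were compared between floral buds and seedlings of Arabidopsis thaliana, in ONT DRS (Oxford Nanopore direct RNA sequencing, in which native polyadenylated RNA is read as it passes through a pore, without PCR). The 42 genes, of 24750 listed, were chosen by locus: 5 H3.1, 3 H3.3, 8 H4, 12 H2A, 10 H2B and 3 H1 genes and CENH3. All plants were wild-type Col-0. The 2 floral bud libraries came from unopened buds at growth stage 6.0 to 6.1, on plants moved to soil for 3 weeks after 14 days on plates, and the 2 seedling libraries came from seedlings grown for 14 days on plates. Both were grown in 16 h light and 8 h dark. Organ, age and growth medium differ together between the stages, so their parts in any difference cannot be told apart. The seedling samples were whole plants and the buds were whole buds, and which number of plants entered a sample is not given in the sources used here.

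Histones are the proteins around which DNA is wrapped. An octamer of H2A, H2B, H3 and H4 forms the nucleosome core, and the linker histone H1 binds where the DNA enters and leaves it. Replicative (canonical) histones, such as H3.1, are made mainly while DNA is copied and are laid down behind the replication fork by the chaperone CAF-1. Replacement variants, such as H3.3, are made throughout the cell cycle and are exchanged into chromatin where nucleosomes are lost, for example at transcribed genes. In plants both kinds of mRNA carry a poly(A) tail, so both are captured by a poly(A) selection, unlike the replicative histone mRNAs of animals.

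The libraries held 796885 and 669401 estimated counts for floral buds and 579416 and 620120 for seedlings. The smallest number taken as detectable, 3 counts, thus equals 3.76 to 5.18 CPM (counts scaled by library size). All levels in CPM that follow also carry upper-quartile normalization factors. Floral organ markers were higher in floral buds in 5 of 5 cases, with summed levels of 1084 to 1175 CPM in floral buds, against 5.08 to 10.6 CPM in seedlings. The root markers (3 of 3 lower) summed to 6.23 and 0 CPM in floral buds, against 1651 and 1505 CPM in seedlings. Of the leaf photosynthesis markers 2 of 3 were lower in floral buds, with sums of 5004 and 4657 CPM in floral buds, against 21996 and 22606 CPM in seedlings. Both tapetum markers (898 and 685 CPM summed in floral buds, 0 in both seedling libraries) and all 3 pollen markers (952 and 797 CPM in floral buds, 0 and 3.39 CPM in seedlings) were higher in floral buds. The part that these organs and cell types have in the histone differences was not tested. In bulk RNA, fewer cells of a type and less RNA per cell cannot be told apart.

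Histone transcripts took up a larger part of the floral bud libraries. The 42 genes held 1.19% (95% Wilson interval 1.17 to 1.22) and 1.04% (1.01 to 1.06) of all counts in floral buds replicates 1 and 2, and 0.536% (0.517 to 0.555) and 0.574% (0.556 to 0.594) in seedlings replicates 1 and 2. After upper-quartile normalization the summed level was 10837 ± 1445 CPM in floral buds, against 5757 ± 394 CPM in seedlings (SD, n = 2 each), a ratio of 1.88. Intervals cover counting error only.

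Of the 42 genes, 41 had at least 5 counts in all and were tested with edgeR's quasi-likelihood test, with the P-values adjusted over all 18647 tested genes (Benjamini-Hochberg). A differentially expressed gene (DEG) had an FDR below 0.05 and a fold change above 2. In floral buds 22 histone genes were higher, where 10.3% of all tested genes were, and 2 were lower, where 9.52% were. The remaining 17 were not called. The median log2 fold change (floral buds over seedlings) of the 41 genes was 1.16, and that of all tested genes was 0.06. DESeq2 called 16 higher and 2 lower, and limma-voom 17 and 2. Of all 18647 tested genes DESeq2 called 991 higher and 974 lower, and limma-voom 1223 and 1239. With no fold limit, 32 histone genes were higher at an FDR below 0.05, so that 10 of these had changes smaller than 2-fold. The same rule made 2314 of all 18647 tested genes higher and 2141 lower. In 39 of the 41 genes the floral bud libraries did not overlap with the seedling libraries. The exceptions were the linker histone gene AT2G30620 and CENH3. The share of all tested genes without overlap was not counted. With 2 libraries against 2, full separation has an exact permutation P of 0.33, so nothing is drawn from this count.

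**Figure D1:**
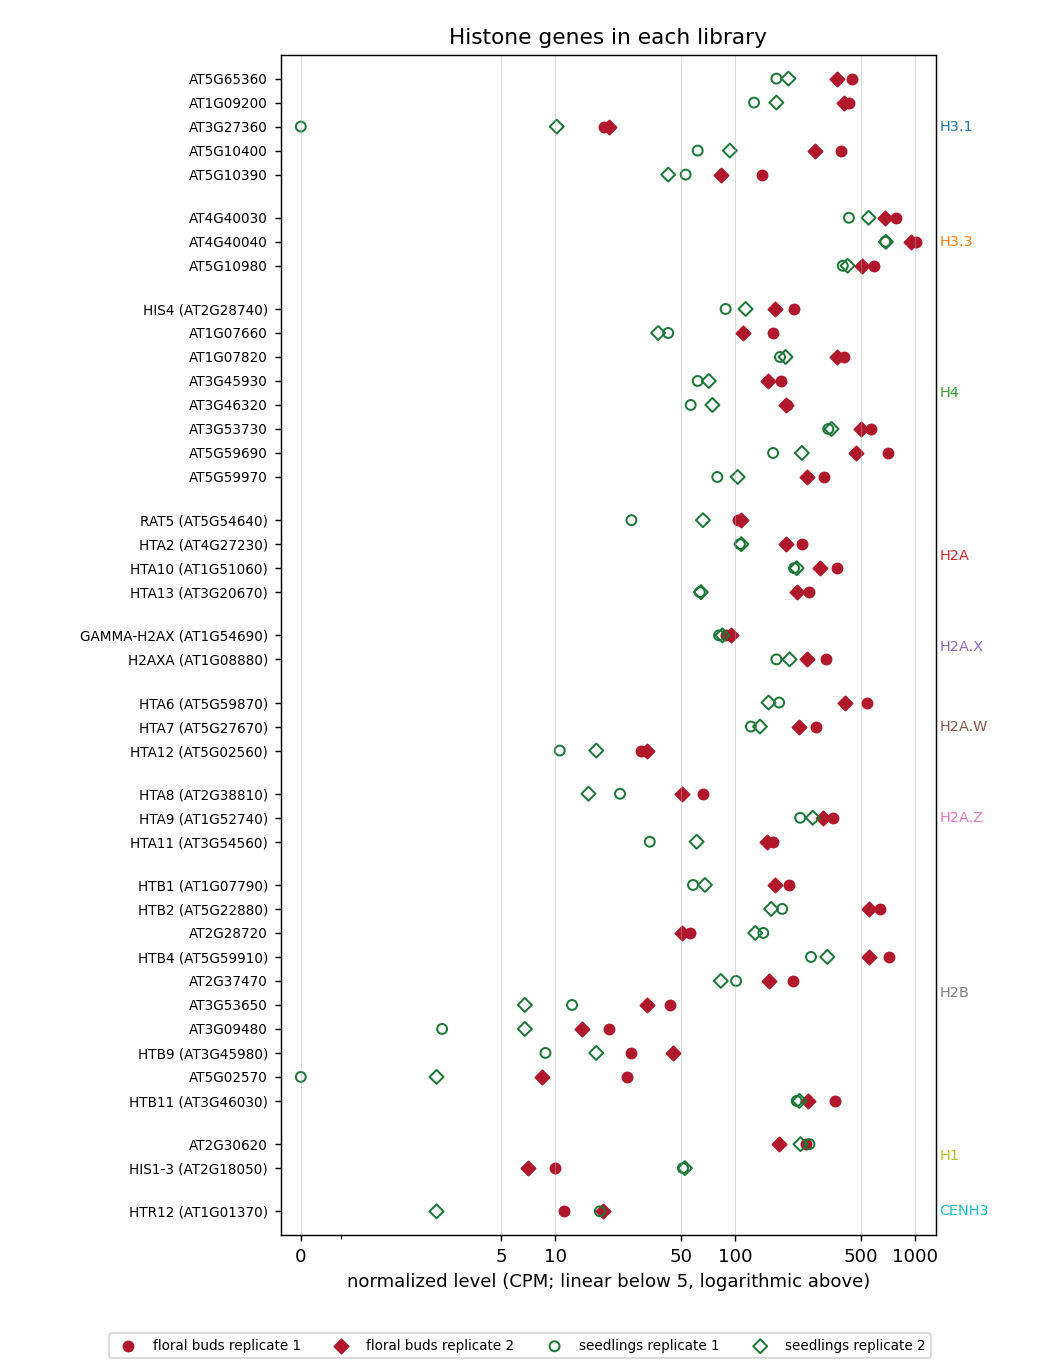
Normalized level (CPM, linear below 5 and logarithmic above) of the 41 tested histone genes in each library, with floral buds as filled and seedlings as open symbols and replicate 1 as circles and replicate 2 as diamonds. The filled symbols lie to the right of the open ones in most rows, and to the left of both for AT2G28720 and HIS1-3.

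The H3.1 genes encode the replicative H3 and have no introns. All 5 were DEGs higher in floral buds, where 10.3% of all tested genes were. AT5G65360 had 447 and 366 CPM in floral buds, against 169 and 197 CPM in seedlings, a log2 fold change of 1.15 ± 0.18 (SE, edgeR FDR = 8.03e-09). AT1G09200 had 425 and 400 CPM in floral buds, against 127 and 169 CPM in seedlings (1.47 ± 0.19, edgeR FDR = 2.71e-13). In both genes the lowest bud library stood well above the highest seedling library. AT5G10400 showed the largest change of the class, with 385 and 278 CPM in floral buds, against 61.8 and 93.2 CPM in seedlings (2.09 ± 0.22, edgeR FDR = 2.3e-20). Its neighbour AT5G10390, which lies 577 bp away on chromosome 5, had 140 and 83.3 CPM in floral buds, against 53.0 and 42.4 CPM in seedlings (1.23 ± 0.29, edgeR FDR = 0.000188). Without floral buds replicate 1 this last change was 0.82 and no longer called (edgeR FDR = 0.112), nor was it with limma (FDR = 0.0891).

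The call of the fifth H3.1 gene rests on few reads. AT3G27360 had 15 and 14 counts in floral buds, against 0 and 6 counts in seedlings (log2 fold change 1.86 ± 0.69, edgeR FDR = 0.0319). It was not called without floral buds replicate 1 (FDR = 0.101), floral buds replicate 2 (FDR = 0.123) or seedlings replicate 1 (FDR = 0.45), nor with DESeq2 or limma. AT3G27360 also overlaps SDH2-1, a gene of a mitochondrial succinate dehydrogenase subunit on the same strand, by 328 bp. SDH2-1 held 297 and 198 counts in floral buds, against 93 and 104 counts in seedlings, and the authors' assignment of reads to genes by overlap could move reads between the pair.

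The H3.3 genes encode the replacement H3, and their annotated transcripts have 2 to 4 introns. None of the 3 was a DEG by edgeR, DESeq2 or limma, since none reached 2-fold, although each had an unadjusted edgeR P below 0.05. AT4G40040 had 1012 and 939 CPM in floral buds, against 680 and 685 CPM in seedlings (log2 fold change 0.52 ± 0.14, edgeR FDR = 0.00251). AT4G40030, which lies 42 bp from it on chromosome 4, had 780 and 675 CPM in floral buds, against 427 and 549 CPM in seedlings (0.58 ± 0.15, edgeR FDR = 0.00129). AT5G10980 had 588 and 506 CPM in floral buds, against 395 and 420 CPM in seedlings (0.42 ± 0.16, edgeR FDR = 0.0367). All 3 were thus higher in floral buds in both libraries, by 1.34- to 1.49-fold. The smallest log2 fold change of the H3.1 class, 1.15, was above the largest of the H3.3 class, 0.58.

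The H3 pool therefore differed in make-up between the stages. H3.1 genes supplied 37.3% (95% Wilson interval 35.6 to 39.0) and 35.1% (33.2 to 37.1) of the H3 counts in floral buds replicates 1 and 2, against 21.5% (19.2 to 24.0) and 23.6% (21.4 to 26.0) in seedlings replicates 1 and 2. The means were 36.2 ± 1.5% in floral buds, against 22.6 ± 1.5% in seedlings (SD, n = 2 each), a difference of 13.6 percentage points. The stages did not overlap, and leaving out any library kept the difference between 12.5 and 14.7 points. With 2 libraries against 2, an exact permutation test cannot go below P = 0.33, so no test was made. Per kb of annotated transcript, H3.1 made up 45.5% and 43.3% in floral buds, against 28.0% and 30.3% in seedlings. H3.3 was the larger part in each of the 4 libraries, by counts and per kb. The paper scaled its DRS counts by library size and not by transcript length. Whether the counts rise with length was not tested, so values per kb are only a second description.

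Within the H3 classes the genes were unequal. The mean level of the H3.3 genes was 547 to 975 CPM in floral buds, against 408 to 682 CPM in seedlings. The H3.1 genes had 19.2 CPM (AT3G27360) to 412 CPM (AT1G09200) in floral buds, against 5.08 to 183 CPM in seedlings. Per kb of transcript, the H3.3 genes had 669 to 756 CPM in floral buds, against 471 to 529 CPM in seedlings. Per kb the H3.1 genes had 23.0 CPM (AT3G27360) to 563 CPM (AT5G65360) in floral buds, against 6.1 to 253 CPM in seedlings. The coding sequences of any 2 H3.1 genes shared 80.3% to 89.5% of their bases and those of an H3.1 and an H3.3 gene 74.0% to 80.3%, and each of the 8 genes has 411 coding bases.

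**Figure D2:**
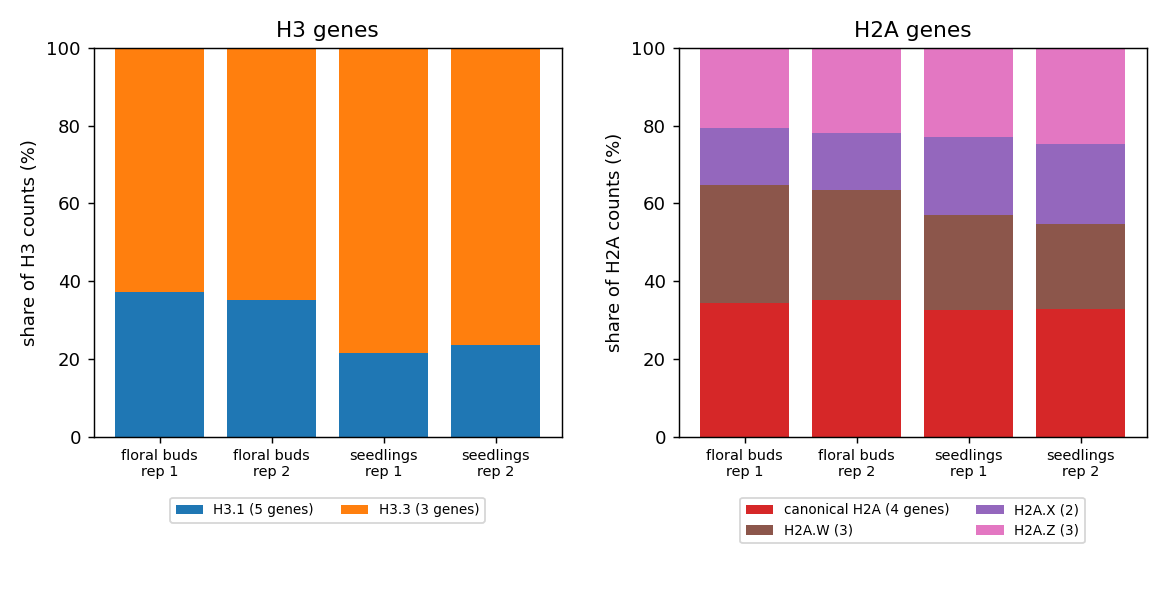
Share of the counts of the H3 genes (left) and of the H2A genes (right) held by each class in each library, in percent, with the floral bud libraries left of the seedling libraries. The H3.1 part was 35.1% to 37.3% in floral buds, against 21.5% to 23.6% in seedlings, while canonical H2A was 34.4% to 35.0% in floral buds, against 32.6% to 32.8% in seedlings.

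H4, which pairs with H3, has a single form in plants with no replacement variant, and its mRNA comes from several genes. Of its 8 genes 6 were DEGs higher in floral buds, where 10.3% of all tested genes were. The class sum was 2460 ± 371 CPM in floral buds, against 1081 ± 120 CPM in seedlings (SD, n = 2 each, ratio 2.28). AT5G59690, the H4 gene with the highest level per kb in floral buds, had 700 and 465 CPM in floral buds, against 162 and 234 CPM in seedlings (log2 fold change 1.56 ± 0.17, edgeR FDR = 2.55e-17). AT1G07660 showed the largest change, with 162 and 110 CPM in floral buds, against 42.4 and 37.3 CPM in seedlings (1.78 ± 0.29, edgeR FDR = 1.35e-08). AT5G59970 (1.61), AT3G46320 (1.55), AT3G45930 (1.31) and AT1G07820 (1.06) were also higher.

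The other H4 genes changed less. AT3G53730, by its mean the most abundant H4 gene per kb in seedlings (470 CPM in floral buds, 296 CPM in seedlings), had 564 and 500 CPM in floral buds, against 328 and 342 CPM in seedlings. Its change of 0.67 ± 0.16 (log2) was below the fold limit (edgeR FDR = 0.000449). HIS4 had 213 and 167 CPM in floral buds, against 88.3 and 114 CPM in seedlings (0.91 ± 0.23, edgeR FDR = 0.00048), and it passed the limit without floral buds replicate 2 (1.05) or seedlings replicate 2 (1.1). By mean level per kb, AT5G59690 (781 CPM per kb in floral buds, 266 CPM per kb in seedlings) was first in floral buds and AT3G53730 first in seedlings. The seedling libraries did not share this order. In seedlings replicate 2 alone AT5G59690 was first per kb too, with 234 CPM for 745 bases, against 342 CPM for 1131 bases of AT3G53730. The coding sequences of AT1G07660 and AT1G07820 shared 98.1% of their bases. Those of AT3G45930 and AT3G46320 shared 97.4%, those of AT5G59690 and AT5G59970 97.1%, and other pairs 78.8% to 87.8%. Part of the reads could thus be assigned to the wrong H4 gene, above all within these 3 closest pairs. No H4 transcript had a copy that matched 80% of its length or more at an identity of 95% or more.

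**Figure D3:**
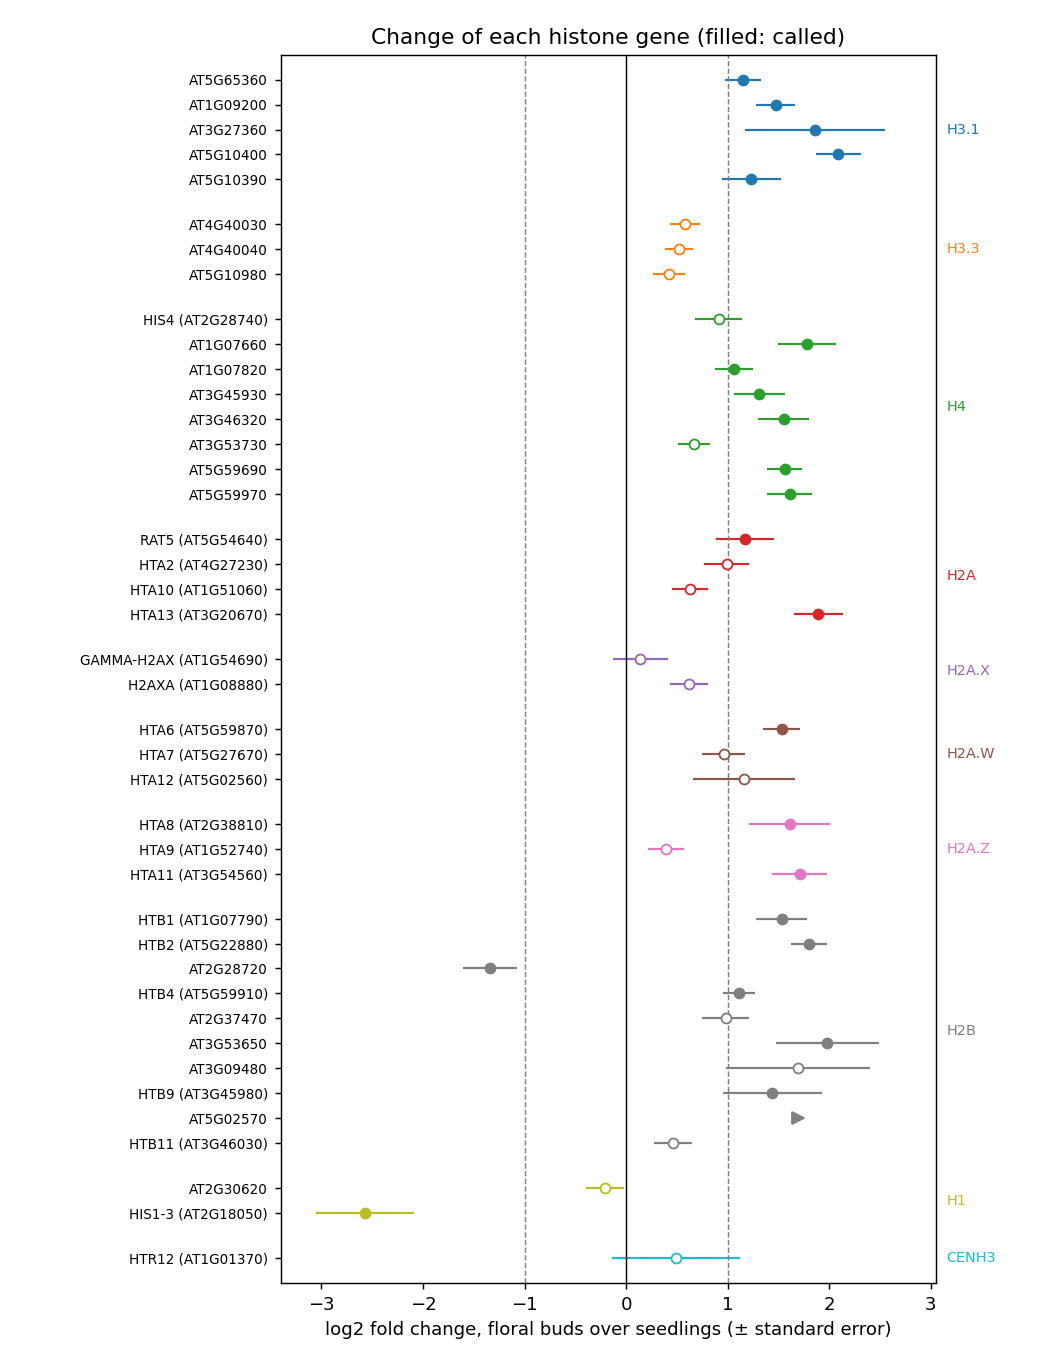
Log2 fold change of each tested histone gene, floral buds over seedlings, with its standard error, coloured by class. Filled symbols are DEGs, dashed lines mark 2-fold in either direction and the triangle marks a lower bound. The 5 H3.1 genes lie right of the upper line and the 3 H3.3 genes left of it.

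Of the 4 canonical H2A genes, 2 were DEGs higher in floral buds, where 10.3% of all tested genes were. HTA13 had 255 and 219 CPM in floral buds, against 63.5 and 64.4 CPM in seedlings (log2 fold change 1.89 ± 0.24, edgeR FDR = 5.7e-14). RAT5 (HTA1), which was named for resistance to Agrobacterium transformation in its mutant, had 103 and 107 CPM in floral buds, against 26.5 and 66.1 CPM in seedlings (1.17 ± 0.29, edgeR FDR = 0.000546). The seedling libraries differed widely for RAT5, and without seedlings replicate 1 its change was 0.66 and not called (FDR = 0.166), as also with DESeq2 and limma. HTA2 had 234 and 191 CPM in floral buds, against 106 and 108 CPM in seedlings (0.99 ± 0.22, edgeR FDR = 7.22e-05), just under the fold limit, and passed it without floral buds replicate 2 (1.1). HTA10, the canonical H2A gene with the highest level per kb in both stages, had 369 and 297 CPM in floral buds, against 212 and 219 CPM in seedlings (0.63 ± 0.18, edgeR FDR = 0.00417).

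H2A.X is the variant whose phosphorylated form marks double-strand breaks. Neither of its 2 genes was a DEG by edgeR, DESeq2 or limma, and 1 had an unadjusted edgeR P below 0.05. GAMMA-H2AX had 88.5 and 94.6 CPM in floral buds, against 81.2 and 84.7 CPM in seedlings (log2 fold change 0.14 ± 0.27, edgeR FDR = 0.774), the smallest change in size among the tested histone genes. H2AXA had 318 and 249 CPM in floral buds, against 169 and 200 CPM in seedlings (0.62 ± 0.19, edgeR FDR = 0.00788).

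H2A.W is a plant variant of heterochromatin, the compact part of the genome. HTA6 was a DEG, with 541 and 405 CPM in floral buds, against 175 and 153 CPM in seedlings (log2 fold change 1.53 ± 0.18, edgeR FDR = 2.94e-15). HTA7 had 279 and 226 CPM in floral buds, against 122 and 137 CPM in seedlings (0.96 ± 0.21, edgeR FDR = 3.51e-05), and passed the fold limit without floral buds replicate 2 (1.08) or seedlings replicate 2 (1.05). HTA12 was scarce, with 24 and 23 counts in floral buds, against 6 and 10 counts in seedlings, and was not called (1.16 ± 0.50, edgeR FDR = 0.0738).

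H2A.Z is exchanged into nucleosomes near transcription starts by the SWR1 complex. Of its 3 genes 2 were DEGs higher in floral buds, where 10.3% of all tested genes were. HTA11 had 161 and 150 CPM in floral buds, against 33.5 and 61.0 CPM in seedlings (log2 fold change 1.71 ± 0.27, edgeR FDR = 6.2e-09). HTA8 had 66.0 and 50.8 CPM in floral buds, against 22.9 and 15.3 CPM in seedlings (1.61 ± 0.40, edgeR FDR = 0.000496), and was not called by DESeq2 (FDR = 0.0619). HTA9 had 349 and 306 CPM in floral buds, against 229 and 269 CPM in seedlings (0.39 ± 0.18, edgeR FDR = 0.101). HTA9 was the most abundant H2A.Z gene per kb in both stages, with 390 CPM in floral buds, against 296 CPM in seedlings, and it was the one that was not called.

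The H2A pool did not divide along replicative and replacement genes as the H3 pool did. Canonical genes held 34.4% and 35.0% of the H2A counts in floral buds, against 32.6% and 32.8% in seedlings, a difference of 2.0 points that lies within the counting intervals of the libraries (32.5 to 36.4 and 32.7 to 37.3 in floral buds, 29.2 to 36.1 and 29.7 to 36.1 in seedlings). Without the genes that overlap another gene the difference was −5.55 points, so its direction depends on which genes are counted. Among the variants the share of H2A.W was 29.5 ± 1.3% in floral buds, against 23.3 ± 1.8% in seedlings. That of H2A.X was 14.6 ± 0.14% in floral buds, against 20.2 ± 0.27% in seedlings, and that of H2A.Z 21.2 ± 0.83% in floral buds, against 23.8 ± 1.4% in seedlings (SD, n = 2 each).

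Counted over H3 and H2A, 7 of the 9 replicative genes were higher in floral buds, with a median log2 fold change of 1.23. Of the 12 replacement genes (H3.3, H2A.X, H2A.W, H2A.Z and CENH3) 3 were, with a median of 0.6, where 10.3% of all tested genes were higher. The medians lay apart within H3, at 1.47 for H3.1 and 0.52 for H3.3. Within H2A they were close, at 1.08 for the 4 canonical genes (2 higher) and 1.06 for the 8 variant genes (3 higher). With limma-voom 4 of the 9 and 3 of the 12 were called higher, where 1223 of all 18647 tested genes were. With no fold limit, 9 of the 9 and 8 of the 12 were higher at an FDR below 0.05, where 2314 of all tested genes were. The difference between the classes was not tested.

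The H2B genes have no introns. Of the 10, 6 were DEGs higher in floral buds and 1 was lower, where 10.3% of all tested genes were higher and 9.52% lower. HTB2 had 632 and 549 CPM in floral buds, against 182 and 158 CPM in seedlings (log2 fold change 1.80 ± 0.18, edgeR FDR = 4.44e-22), the smallest FDR of the 41 histone genes. HTB1 had 199 and 165 CPM in floral buds, against 58.2 and 67.8 CPM in seedlings (1.53 ± 0.25, edgeR FDR = 1.5e-08). HTB4 had 710 and 552 CPM in floral buds, against 263 and 324 CPM in seedlings (1.11 ± 0.16, edgeR FDR = 4.25e-10), and its change fell below the fold limit without floral buds replicate 1 (0.92) or seedlings replicate 1 (0.95).

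AT2G28720 went against the rest of the H2B class. It had 56.1 and 50.8 CPM in floral buds, against 143 and 129 CPM in seedlings, a log2 fold change of −1.34 ± 0.27 (edgeR FDR = 7.44e-06). It stayed between −1.42 and −1.27 when any library was left out. It supplied 2.62 ± 0.23% of the H2B counts in floral buds, against 13.5 ± 1.3% in seedlings, whereas HTB2 supplied 28.9 ± 1.7% in floral buds, against 16.9 ± 2.1% in seedlings (SD, n = 2 each).

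HTB11 and AT2G37470 were expressed at intermediate levels and not called. HTB11 had 358 and 253 CPM in floral buds, against 219 and 227 CPM in seedlings (0.46 ± 0.19, edgeR FDR = 0.0556), so that its share of the H2B counts was 14.8 ± 1.3% in floral buds, against 22.2 ± 0.084% in seedlings (SD, n = 2 each). AT2G37470 had 209 and 153 CPM in floral buds, against 101 and 83.0 CPM in seedlings (0.98 ± 0.23, edgeR FDR = 0.000219), and passed the fold limit without floral buds replicate 2 (1.16) or seedlings replicate 1 (1.12).

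The other 4 H2B genes had fewer than 50 CPM in every library. AT3G53650 had 35 and 23 counts in floral buds, against 7 and 4 counts in seedlings (1.98 ± 0.51, edgeR FDR = 0.000922), and was not called by DESeq2 (FDR = 0.0844). HTB9 had 21 and 32 counts in floral buds, against 5 and 10 counts in seedlings (1.44 ± 0.49, edgeR FDR = 0.0176), and was not called without floral buds replicate 2 (FDR = 0.324) or seedlings replicate 1 (FDR = 0.205), nor by DESeq2 or limma. AT3G09480 had 16 and 10 counts in floral buds, against 2 and 4 counts in seedlings and was not called (1.69 ± 0.71, edgeR FDR = 0.0655).

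AT5G02570 had 20 and 6 counts in floral buds, against 0 and 2 counts in seedlings, and was at least 3.22-fold higher in floral buds against a floor of 3 counts per library (edgeR FDR = 0.00284). It was not called without floral buds replicate 1 (FDR = 0.231) or seedlings replicate 1 (FDR = 0.0888), nor by DESeq2 or limma. All 522 bp of AT5G02570 lie inside the H2A.W gene HTA12 on the other strand. The authors' code joins reads to genes without strand, so the counts of AT5G02570 and HTA12 cannot be fully separated. Of the 42 histone genes 9 overlap another annotated gene, and without them 18 genes were higher and 2 lower.

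The linker histone genes had a summed level of 221 ± 52.6 CPM in floral buds, against 298 ± 18.4 CPM in seedlings (SD, n = 2 each; ratio 0.742). HIS1-3, a short H1 variant known to be induced by drought and low light, was the histone gene with the largest fall. It had 9.97 and 7.06 CPM in floral buds (8 and 5 counts), against 51.2 and 52.5 CPM in seedlings (29 and 31 counts), a log2 fold change of −2.57 ± 0.48 (edgeR FDR = 1.22e-06) or 5.93-fold lower in floral buds. It made up 3.86 ± 0.013% of the H1 counts in floral buds, against 17.5 ± 1.4% in seedlings. AT2G30620, a main H1 gene, had 248 and 174 CPM in floral buds, against 258 and 230 CPM in seedlings (−0.21 ± 0.19, edgeR FDR = 0.504), and its libraries overlapped between the stages. AT1G06760, the other main H1 gene, had 0 and 2 counts in floral buds, against 1 and 1 count in seedlings, at or under the floor in every library, and was not tested. AT1G06760 overlaps a lncRNA gene by 484 bp and AT1G06750 by 2 bp, both on the other strand. The lncRNA gene held 0 counts in every library, and AT1G06750 held 3 and 6 counts in floral buds, against 1 and 6 in seedlings. Whether reads of AT1G06760 were lost in the assignment without strand was not tested. The H1 sum and the share of HIS1-3 hold for the counts as listed.

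CENH3 (HTR12), the H3 variant of centromeres, had 9 and 13 counts in floral buds, against 10 and 2 counts in seedlings. Its log2 fold change was 0.49 ± 0.63 (edgeR FDR = 0.649), and without seedlings replicate 2 it was −0.27, so no direction was detectable at this depth. Of the histone genes outside the 42, MGH3, which encodes the H3 variant of the male germline, had 8 and 7 counts in floral buds, against 0 and 0 counts in seedlings, at least 1.91-fold higher in floral buds (edgeR FDR = 0.00478, not called by DESeq2). AT1G13370 had 2 and 0 counts in floral buds, against 0 and 0 in seedlings, HTR11 had 1 and 1 in floral buds, against 1 and 0 in seedlings, and AT1G08170 was listed at 0 in every library. AT1G75600, AT5G12910 and HTA4 were not among the genes listed with counts.

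The promoters of plant histone genes are known for short shared elements, among them the octamer CGCGGATC and the hexamer ACGTCA, both described first in histone genes of cereals. These letters, and the E2F-type sites TTTCCCGC and TTTGGCGC, were searched on both strands in 300 bases (250 before to 50 after the annotated gene start, RefSeq annotation of TAIR10.1) of 27443 protein-coding genes. No match of a motif overlapped a match of another. The octamer stood in 10 of the 42 histone promoters (23.8%) and in 40 of all promoters (0.146%). It was found in 3 of 5 H3.1, 1 of 3 H3.3, 2 of 8 H4, 2 of 4 canonical H2A, 1 of 3 H2A.W and 1 of 3 H1 promoters, and in none of the H2A.X, H2A.Z and H2B promoters.

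The octamer and its flanks are shown for 3 H3.1 genes, 2 H4 genes and HTA6, all of them higher in floral buds, read along the gene's strand with the octamer in capitals.
AT5G65360 (H3.1, chr5:26120684-26120723, − strand): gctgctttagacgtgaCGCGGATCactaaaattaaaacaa
AT1G09200 (H3.1, chr1:2972401-2972440, − strand): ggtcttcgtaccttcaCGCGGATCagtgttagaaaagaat
AT5G10400 (H3.1, chr5:3271054-3271093, − strand): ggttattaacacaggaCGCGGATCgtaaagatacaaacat
AT1G07660 (H4, chr1:2368691-2368730, + strand): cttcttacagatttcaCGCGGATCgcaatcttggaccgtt
AT5G59690 (H4, chr5:24051387-24051426, + strand): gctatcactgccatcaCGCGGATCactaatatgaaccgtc
HTA6 (H2A.W, chr5:24116313-24116352, − strand): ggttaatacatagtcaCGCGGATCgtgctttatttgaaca
HTA13 carries it on the other strand, shown by its reverse complement in capitals.
HTA13 (canonical H2A, chr3:7229306-7229345, + strand): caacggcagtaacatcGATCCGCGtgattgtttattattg

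The octamers shown began between −126 and −68 bases from the gene start, and AT1G09200 has a further octamer at −19 bases. Of the 10 histone genes with the octamer 9 were tested and 7 were higher in floral buds, with a median log2 fold change of 1.53. HTA10 and AT4G40040 carry it too and were not called, and AT1G06760 carries it and was not tested. Of the 32 histone genes without it 15 were higher and 2 lower, with a median of 1.08. Among 30 other genes with the octamer, 22 were tested, 3 were higher and 1 was lower, with a median of 0.47. For comparison, 10.3% of all tested genes were higher and 9.52% lower. A match is a description of the letters in this window and not of a bound site.

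The hexamer ACGTCA stood in 13 of the 42 histone promoters (31.0%) and in 9.19% of all promoters. It was found in 9 of the 10 H2B promoters, the exception being AT3G09480, and in no H2A promoter of any class. By exact match, 9 of the 10 H2B promoters thus held the hexamer and none held the octamer. Near matches were not searched. In AT3G53650 the hexamer is followed, after the letters tc, by gatccgca. This differs from the octamer read on the other strand (GATCCGCG) in its last letter only. It is shown, in capitals, for the H2B gene that was lower in floral buds, for 4 others of the class and for the H3.3 gene AT5G10980.
AT2G28720 (H2B, lower, chr2:12326742-12326779, + strand): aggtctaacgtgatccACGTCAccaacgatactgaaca
AT3G53650 (H2B, higher, chr3:19889185-19889222, + strand): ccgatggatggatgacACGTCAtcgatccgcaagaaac
HTB9 (H2B, higher, chr3:16898148-16898185, − strand): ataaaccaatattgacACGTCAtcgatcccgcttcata
AT2G37470 (H2B, not called, chr2:15736663-15736700, + strand): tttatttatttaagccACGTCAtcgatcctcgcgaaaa
HTB11 (H2B, not called, chr3:16914198-16914235, − strand): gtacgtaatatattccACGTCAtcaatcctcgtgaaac
AT5G10980 (H3.3, not called, chr5:3473610-3473647, − strand): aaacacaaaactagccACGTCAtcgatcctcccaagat

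In several of these sequences the hexamer was followed, after 1 further base, by the letters CGATC. These letters end in GATC, with which the octamer begins when read on the other strand (GATCCGCG). This longer match, looked for after the sequences had been seen, occurred in 11 of all 27443 promoters (0.0401%), and 6 of these were histone genes: the H2B genes AT2G37470, AT3G53650, HTB9 and AT5G02570, the H4 gene AT1G07820 and AT5G10980. The promoter of AT2G28720 has the hexamer at −50 bases without the longer match. Of the 13 histone genes with the hexamer 9 were higher and 1 was lower (median log2 fold change 1.44), and of the 28 tested without it 13 were higher and 1 was lower (1.16). Among 2509 other genes with the hexamer, 1773 were tested, 215 were higher and 162 were lower, with a median of 0.07. Of all tested genes 10.3% were higher and 9.52% lower. TTTCCCGC was in none of the 42 promoters and in 0.798% of all, and TTTGGCGC was in those of the H4 genes AT3G45930 and AT3G46320, where it began at −237 bases in both, and in 0.434% of all. The 300 bases of these H4 promoters are nearly identical, so the matches are not separate occurrences.

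**Figure D4:**
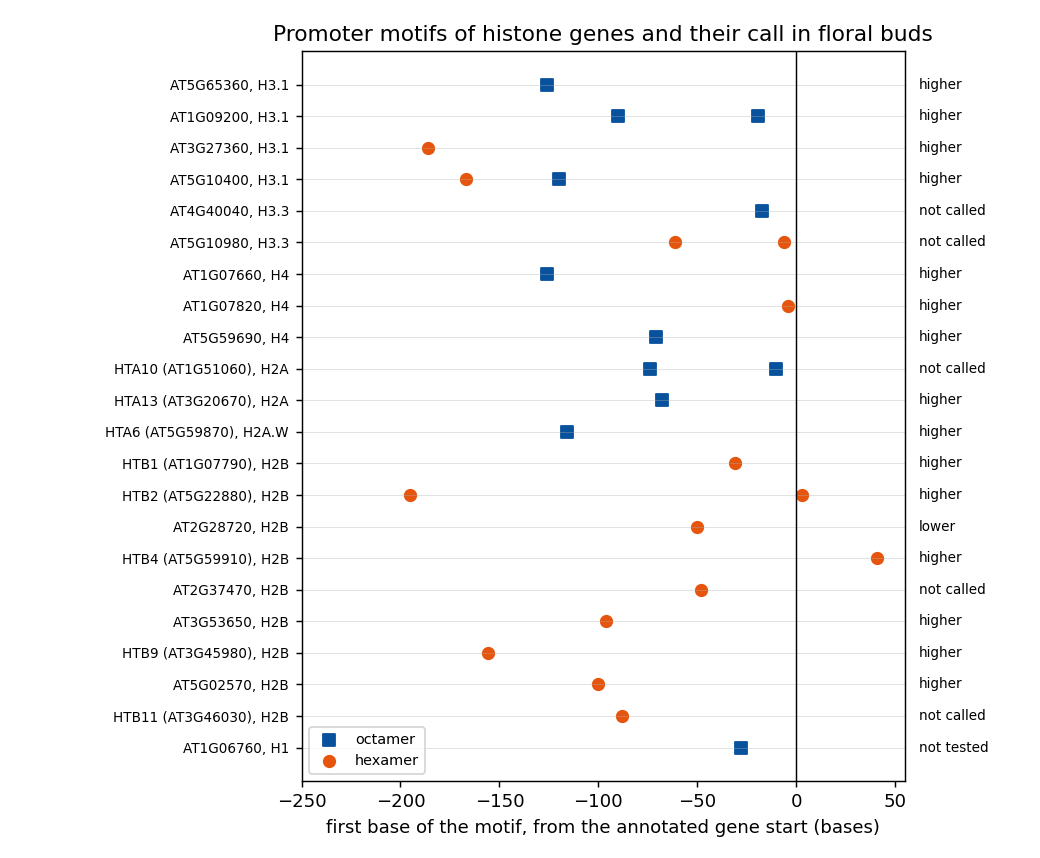
First base of each octamer (squares) and hexamer (circles) match, in bases from the annotated gene start (0), in the histone promoters that hold one, with the class of each gene on the left and its call in floral buds on the right. The octamers lie in H3, H4, H2A and H1 promoters and the hexamers mainly in H2B promoters.

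Histone chaperones carry histones to and from DNA. Of 22 chaperone and exchange genes 21 were tested, and 2 were higher and 1 was lower in floral buds, where 10.3% of all tested genes were higher and 9.52% lower, with a median log2 fold change of 0.19 (genes near 0 set at their bound). NRP2, a NAP1-related chaperone of H2A and H2B, had 93.4 and 73.4 CPM in floral buds, against 24.7 and 28.8 CPM in seedlings (1.64 ± 0.35, edgeR FDR = 2.42e-05). Its paralogue NRP1 had 16 and 4 counts in floral buds, against 1 and 2 in seedlings, at least 2.46-fold higher in floral buds (edgeR FDR = 0.0468). Neither NRP1 nor ATRX was called by DESeq2 or limma. ATRX, an H3.3 chaperone, had 3 and 1 counts in floral buds, against 2 and 21 in seedlings (edgeR FDR = 0.00204), so its call rests on seedlings replicate 2, without which 1 chaperone gene was called in all. FAS1 and FAS2, subunits of CAF-1, were not called, with 5 and 6 counts in floral buds, against 2 and 5 in seedlings for FAS1, and 7 and 7 in floral buds, against 5 and 1 in seedlings for FAS2.

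Of 13 DNA replication genes 12 were tested and 3 were higher in floral buds, where 10.3% of all tested genes were, with a median log2 fold change of 0.66. They encode subunits of the MCM helicase, which unwinds DNA at the fork: MCM4 (1.54 ± 0.55, edgeR FDR = 0.0257), MCM2 (1.64 ± 0.60, edgeR FDR = 0.0273) and MCM3 (1.35 ± 0.53, edgeR FDR = 0.0453). None of the 3 was called by DESeq2 or limma, or without floral buds replicate 2 or seedlings replicate 2. MCM4 had 15 and 27 counts in floral buds, against 10 and 1 in seedlings. The summed level of the list was 370 and 390 CPM in floral buds, against 295 and 212 CPM in seedlings. PCNA1, the sliding clamp of the polymerase, had 46.1 and 22.6 CPM in floral buds, against 26.5 and 22.0 CPM in seedlings and was not called (0.52 ± 0.43, edgeR FDR = 0.433). ICU2, a subunit of DNA polymerase alpha, was listed at 0 in every library, so its level is not known from these counts.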

How the data were processed

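The values the authors deposited are estimated counts per gene (expected counts) for 4 libraries, without normalization. Per the paper and its code, bases were called with Guppy, reads aligned to the Arabidopsis genome with minimap2 (2.17 in the submitters' processing notes) and joined to genes by overlap without strand, then quantified with TrackCluster. Of the values above 0, 83.8% were not whole. A combined table repeated 3 columns that were identical to the libraries' own.

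Estimated counts were rounded, genes with at least 5 summed counts kept, and floral buds compared with seedlings in edgeR 4.0.16 (R 4.3.3) with upper-quartile factors, glmQLFit and glmQLFTest, stage as the only term (limma 3.58.1 and DESeq2 1.42.0 as alternatives). The study names quantile normalization, and upper quartile was taken as the nearest factor. Normalized CPM are given with SD of 2 replicates, and SE is the log2 fold change over the square root of F. The fit gave all genes a shared dispersion (biological coefficient of variation 14.6%), so that a gene more variable than most may be called too easily. Replicates differed by more than sampling noise (chi-square per degree of freedom 1.88 in floral buds and 1.73 in seedlings). The fit was tested on simulated data. Fold changes against a stage with at most 3 counts per library are lower bounds. Scaled by library size alone, 3 counts equal 3.76, 4.48, 5.18 and 4.84 CPM (floral buds replicates 1 and 2, seedlings replicates 1 and 2). The normalized CPM and the lower bounds also carry the upper-quartile factors, so 3 counts equal, for example, 5.08 CPM in seedlings replicate 2 on that scale.

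Gene models, overlaps and promoter sequence came from the RefSeq annotation of TAIR10.1, in which all 42 loci matched, and transcript copies were sought with blastn 2.17.0. Shares carry 95% Wilson intervals. The 42 genes, the gene lists and the tests were chosen with earlier results of these data known. Of each list the called genes were named, at most 4 in each direction by FDR, and all other histone genes were named. FAS1, FAS2, PCNA1 and ICU2 were named for their roles, after their values were seen. Alternatives were TMM or library size alone, DESeq2, limma-voom with quantile normalization, edgeR's exact test, other count filters and fold limits, the replicate number as a block, unrounded counts and each library left out. Counts per kb, and counts without overlapping genes, were chosen after seeing the data.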

Additional observations from a re-analysis of the deposited data

How the results depend on the processing

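Over 41 histone genes and 606 gene-by-setting values, 543 kept their direction and their side of the threshold, 35 lost the call, 27 gained it and 1 reversed (CENH3, −0.27 without seedlings replicate 2, with values up to 2.05 as others were left out). In 16 genes no alternative changed the call. The test against a fold change of 2 (glmTreat) left 12 of 22 histone genes higher and 1 of 2 lower, 3 of 7 replicative genes, 1 of 3 chaperone genes, 0 of 3 DNA replication genes and 2126 of 3687 genes in all. DESeq2 called 1965 genes in all, limma-voom 4 replicative genes, and each called 1 chaperone gene and 0 DNA replication genes. A filter of 10 counts in each library left 1037 genes called in all, 1 histone gene lower, 1 chaperone gene and 0 DNA replication genes, with fewer genes tested (7195), and made 43.2% of all calls higher in floral buds against 51.9%. With no count filter, or the replicate block, 0 DNA replication genes were called. Of the replacement genes 5 were called with library size alone and 8 with no fold limit. Library size alone set the median log2 fold change of all genes at 0.15, against 0.06. The H3.1 share of H3 differed by 16.1 points without AT4G40040, the H3.3 gene with the most H3 counts, and by 15.2 per kb. The canonical H2A share differed by 5.16 points without HTA6, the H2A.W gene with the most H2A counts, by −5.55 without overlapping genes and by 2.49 per kb. Where not stated above, the cause was not tested.

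Leaving out each library in turn gave 18 to 24 histone genes higher, 1 to 3 chaperone genes and 0 to 3 DNA replication genes. The replicate block gave 22 histone genes higher and 3095 genes in all. The replicate numbers of the stages are not known to pair the libraries (r = −0.0728 between the replicate differences over 10754 genes). The shares in normalized CPM were not run, since scaling a library cannot change them. Depth limits what can be said of AT1G06760, CENH3 and the genes under about 20 counts per library. No group was large enough for a search for outlying libraries.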
